A study of Mus musculus with 2 samples.

Results

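Circadian clock genes were examined in RNA pulled down with the ribosomes of Drd2-expressing cells in mouse medial prefrontal cortex. The genes were 10 core activators, repressors and outputs of the clock, and a probe set counted when the platform annotation named that gene and no other. Of the 10, 9 were measured in this way (Clock, Npas2, Arntl, Per1, Per3, Cry1, Cry2, Nr1d1 and Dbp), each by 1 probe set, among 22180 named genes and 34472 probe sets. The only probe set that names Per2 also names 9830107B12Rik, so Per2 was not analysed here. A probe set shared by Cry2 and the overlapping noncoding RNA D930015M05Rik was not used either.

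The data came from 2 arrays, labelled as technical replicates from tissue of 5 pooled adult D2Cre::RiboTag mice and taken to come from the same pool, which the labels do not state. In these animals, Cre made from the Drd2 driver switches on a tagged ribosomal protein, and the haemagglutinin tag lets ribosomes of Cre-expressing cells be precipitated with their messengers. Both arrays belong to 1 group with the same genotype, tissue and age class, and no untagged control, input RNA, treatment or time course was analysed here. The time of day of the dissection is not given in the sources used here, so the phase of the clock at sampling is unknown. Signals are on a log scale whose base, log2, was inferred from the values. In such bulk RNA, fewer cells with a transcript and less of that transcript per cell cannot be told apart.

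The mammalian clock is a transcriptional feedback loop found in most cells, cortical neurons included. CLOCK or its close relative NPAS2 pairs with BMAL1, the product of Arntl, and the pair binds E-box sequences to activate the Per and Cry genes, whose proteins return to the nucleus and block the pair. The same pair activates Nr1d1, whose product REV-ERB alpha represses Arntl through RORE sequences, and Dbp, a transcription factor that carries the rhythm to output genes through D-box sequences.

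The promoter sequences show which of these elements stand directly before the genes measured here. RefSeq (GRCm38.p6) gave 13 promoter windows for the 9 measured genes, and the 250 bases before each start were searched on both strands. The E-box CACGTG was found in 1 of the 2 Per1 windows and in the Cry1 window, 2 of 13 in all, against 6.02% of all 32851 windows. The related E-prime-box CACGTT, which reads AACGTG on the other strand, was found before Cry1, Cry2 and Nr1d1, 3 of 13 windows against 3.85% of all. The D-box TTATGTAA occurred before Per3 only, with 2 copies, and 0.819% of all windows held it. Only this exact string was searched as a D-box. Strings that differ in a letter, such as ttatgcaa in the Per1 window below, were not counted. The cyclic AMP response element TGACGTCA and the RORE consensus were found in 0 of the 13 windows, against 1.55% and 0.332% of all. The 5 windows with a match follow, with the matched elements in capitals, each read from 5′ to 3′ on the gene's strand and ending at the base before the start.
Per1, chr11:69098699-69098948, plus strand: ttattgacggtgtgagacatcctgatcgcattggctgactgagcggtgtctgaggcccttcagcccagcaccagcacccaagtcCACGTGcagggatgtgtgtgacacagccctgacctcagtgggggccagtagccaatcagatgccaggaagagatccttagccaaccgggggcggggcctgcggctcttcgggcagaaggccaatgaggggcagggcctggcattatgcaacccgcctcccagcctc
Cry1, chr10:85185055-85185304, minus strand: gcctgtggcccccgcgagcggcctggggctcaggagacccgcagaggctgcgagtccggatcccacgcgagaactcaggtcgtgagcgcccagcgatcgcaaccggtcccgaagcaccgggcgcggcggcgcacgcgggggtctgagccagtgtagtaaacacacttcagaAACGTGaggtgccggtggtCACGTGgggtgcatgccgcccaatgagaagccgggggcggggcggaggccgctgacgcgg
Cry2, chr2:92434070-92434319, minus strand: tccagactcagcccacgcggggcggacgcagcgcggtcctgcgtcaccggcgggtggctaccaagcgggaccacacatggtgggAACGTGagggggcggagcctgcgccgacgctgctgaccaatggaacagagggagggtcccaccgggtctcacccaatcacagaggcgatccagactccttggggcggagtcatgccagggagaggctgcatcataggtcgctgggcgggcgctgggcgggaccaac
Nr1d1, chr11:98775378-98775627, minus strand: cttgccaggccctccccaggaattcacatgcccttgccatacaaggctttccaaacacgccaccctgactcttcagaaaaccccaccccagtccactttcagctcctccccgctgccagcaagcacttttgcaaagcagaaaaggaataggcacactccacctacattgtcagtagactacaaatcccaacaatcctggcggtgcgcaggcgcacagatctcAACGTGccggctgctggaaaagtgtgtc
Per3, chr4:151044666-151044915, minus strand: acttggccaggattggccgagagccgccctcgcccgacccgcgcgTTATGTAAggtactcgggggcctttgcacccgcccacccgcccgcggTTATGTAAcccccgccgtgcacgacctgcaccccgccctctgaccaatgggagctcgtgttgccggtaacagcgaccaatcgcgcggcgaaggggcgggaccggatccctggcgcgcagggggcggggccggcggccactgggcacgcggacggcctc
The elements of Cry1 lay 79 and 60 bases before the start, that of Per1 166, that of Cry2 166 and that of Nr1d1 28 bases before it. Both D-boxes of Per3 lay farther out, at 205 and 158 bases. The windows of Clock, Npas2, Arntl and Dbp held none of the elements, which says only that these letters are not in those 250 bases. The members' windows had a median GC content of 64.0%, against 52.4% over all windows, and a median ratio of observed to expected CpG of 0.77, against 0.37. The E-box, E-prime-box and cyclic AMP response element each contain a CpG, and the shares over all windows are not matched for this composition. How far composition bears on the matches was not tested. A match is a description of the sequence, and no binding was measured here.

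All 9 measured clock genes gave signal above background on both arrays, against 60.3% of all named genes and 64.1% of those that are not sensory receptor genes. This background is permissive, since it was also exceeded by 10 of 31 genes typical of liver, testis or skeletal muscle. It was set within each array as the 95th percentile of its olfactory and vomeronasal receptor genes, 1394 in all, which lay at 5.61 on replicate 1 and 5.66 on replicate 2. The clock genes had a median signal of 10.38, against 6.36 over all named genes and 7.90 over the genes above background. Because probe sets differ in how strongly they bind, the clock genes are not ranked by signal, and where another gene's signal stands beside theirs it describes these probe sets and not the amount of RNA. No p-value is given, since there is 1 group of technical replicates. Every SD below covers 2 arrays of a pool (n = 2 arrays) and leaves out the variation between animals.

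**Figure D1:**
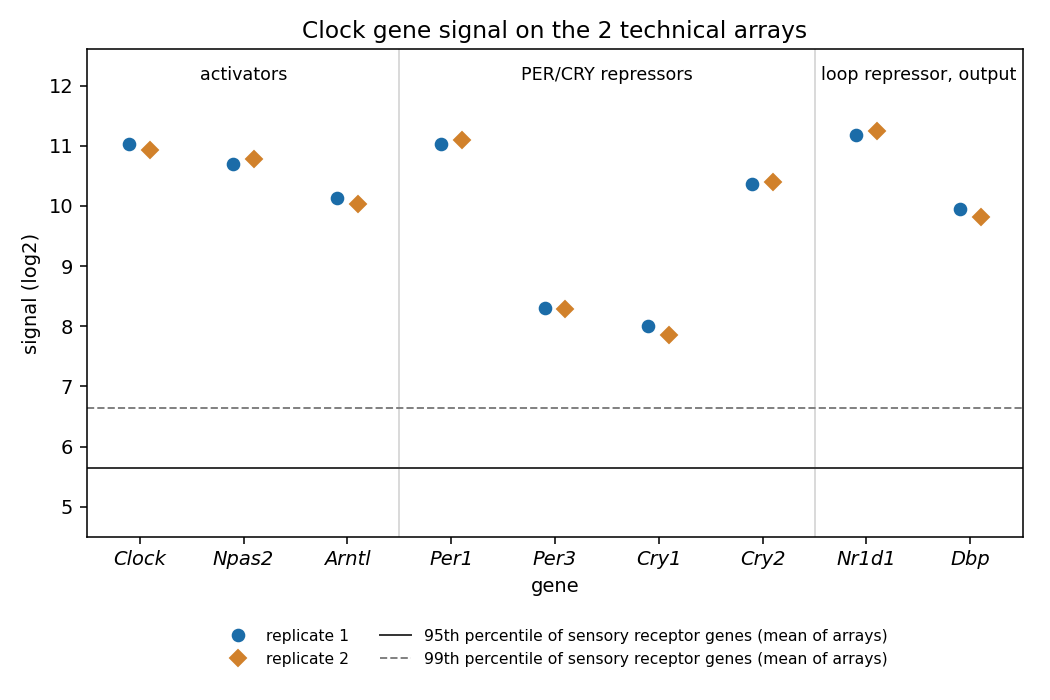
Signal (log2, vertical axis) of the 9 measured clock genes (horizontal axis) on replicate 1 (circles) and replicate 2 (diamonds), with lines at the sensory receptor genes' 95th and 99th percentiles averaged over the arrays. All points lie above both lines, and Cry1, at 8.0 and 7.86, and Per3, at 8.30 and 8.28, lie closest to them.

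All activator genes gave signal well above background. Clock, which encodes a DNA-binding subunit of the activator with histone acetyltransferase activity, had signals of 11.03 and 10.93 (mean 10.98 ± 0.07), 5.34 log2 units over the mean threshold. Npas2, whose product can take the place of CLOCK in the mouse forebrain, had 10.69 and 10.78 (10.74 ± 0.06), 5.10 units over it. Both alternative partners of BMAL1 were thus measured in this RNA, and neither gene's arrays differed by more than 0.10. Arntl, which encodes the shared partner BMAL1, had 10.13 and 10.03 (10.08 ± 0.07), 4.44 units over the threshold. No sensory receptor gene reached the signal of any of these activators on the same array (0 of 1394).

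The repressor genes of the Per and Cry families lay at different heights over background. Per1, a repressor gene that also responds quickly to neuronal activity and cyclic AMP, had signals of 11.03 and 11.09 (11.06 ± 0.04), 5.42 units over the threshold. Per3, a family member that is largely dispensable for rhythm in mice, had 8.30 and 8.28 (8.29 ± 0.01), 2.65 units over it. Cry1, whose product is a strong repressor of the CLOCK and BMAL1 pair, had 8.0 and 7.86 (7.93 ± 0.10), 2.29 units over it. Cry2, the other cryptochrome gene, had 10.36 and 10.40 (10.38 ± 0.03), 4.74 units over it. Per3 and Cry1 were the only measured clock genes whose signal a sensory receptor gene exceeded: Olfr1360, at 8.40 and 8.42, stood above both on both arrays. Every other sensory receptor gene lay below both on both arrays. Whether these heights differ because of the RNA or the probe sets was not tested.

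The accessory loop repressor and the output gene were also well above background. Nr1d1 had signals of 11.17 and 11.24 (11.21 ± 0.05), 5.57 units over the threshold. Dbp had 9.94 and 9.82 (9.88 ± 0.08), 4.24 units over it. Several clock genes overlap other genes in RefSeq, and whether the probe sets tell the strands apart is not given in the sources used here. Nr1d1 overlaps Thra, a thyroid hormone receptor gene, which had 10.56 and 10.50. Dbp overlaps Sphk2, a sphingosine kinase gene, which had 8.83 and 8.66. Per3 overlaps Uts2, a urotensin gene, which had 6.42 and 6.39. Clock overlaps Gm7467, which had 6.64 and 6.38, and Ube2n-ps1. Npas2 overlaps Gm20428, Gm17904 and Gm3617, Arntl overlaps Gm33721 and Cry2 overlaps D930015M05Rik. Of the measured clock genes, only Per1 and Cry1 overlap no other gene. How far shared sequence adds to these signals was not tested.

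**Figure D2:**
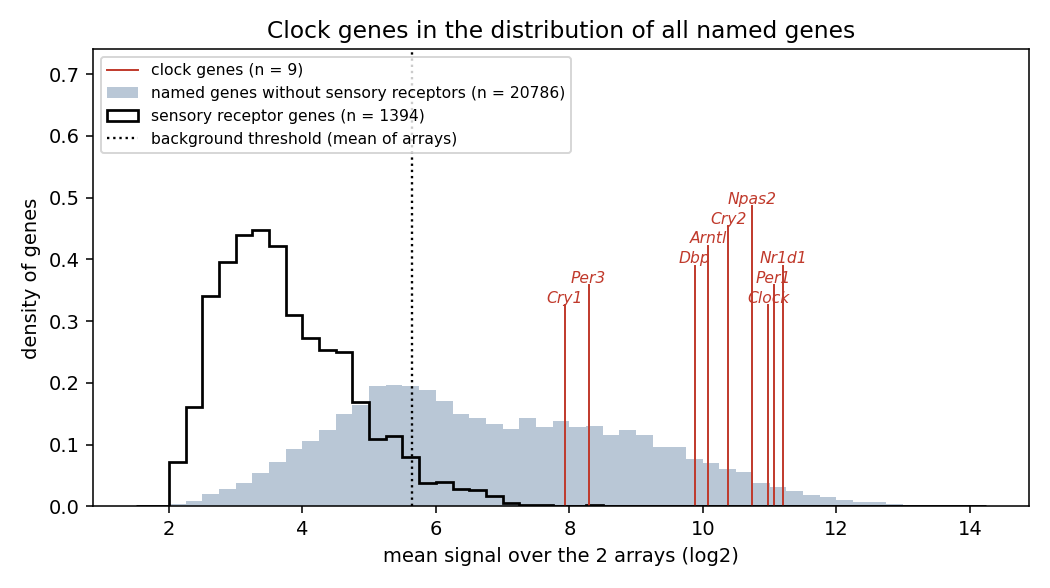
Density of genes (vertical axis) by mean signal over the arrays (log2, horizontal axis) for named genes without the sensory receptors (filled) and for the 1394 sensory receptor genes (outline), with a red line at each clock gene and a dotted line at the mean background threshold. Line heights carry no value; Cry1 and Per3 lie nearest to the threshold, and the other 7 clock genes lie between 9.88 and 11.21.

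The arrays repeated the clock genes about as closely as other genes of like signal. The difference, replicate 2 minus replicate 1, ran from -0.14 for Cry1 to 0.09 for Npas2, with 4 genes higher on replicate 2 and 5 higher on replicate 1. Its median size was 0.09, against 0.09 over the 13374 genes above background, 0.08 over the 6129 genes whose mean signal lay in the clock genes' range of 7.93 to 11.21, and 0.19 over the 8806 genes not above background. A size over 0.2, a limit chosen after the values were seen, was reached by 0 of the 9 clock genes, against 8.78% of the genes in that range and 16.1% of all genes above background. With only 9 genes, a count of 0 cannot be told apart from that 8.78%. Across the clock genes the difference had an SD of 0.092, against 0.117 over the genes in that range.

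**Figure D3:**
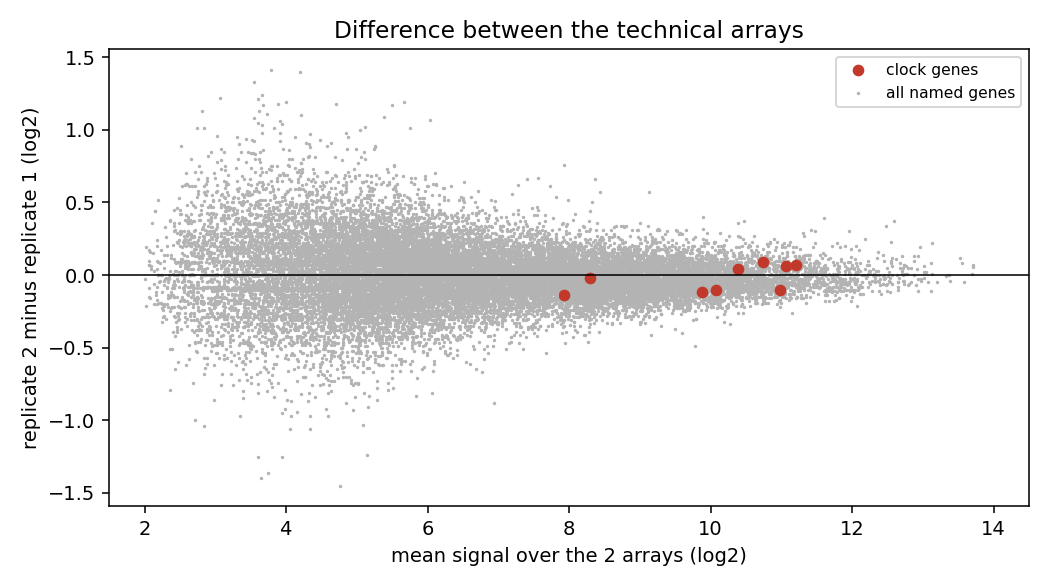
Replicate 2 minus replicate 1 (log2, vertical axis) against mean signal over the arrays (log2, horizontal axis) for the 9 clock genes (red) and all named genes (grey). The clock genes lie between -0.14 and 0.09, inside the grey cloud, which widens toward low signals.

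Other genes of the clock pathway were above background as well. They formed 5 lists with 44 genes, chosen with earlier results of these data known. Of these genes 40 were measured and all 40 exceeded background. The share was 60.3% of all named genes and 64.1% of those that are not sensory receptor genes. The median of the 40 pathway genes was 9.02. All 9 clock genes also exceeded the median of all probe sets, as did 57.5% of all named genes. They passed as well the 95th percentile of those 31 genes of other tissues, an out-of-tissue threshold added after the data were seen, which 38.0% of all named genes passed. Of the 40 other pathway genes 32 passed it, and Arntl2, Tef, Fbxl21, Timeless, Tipin, Kat2b, Vipr2 and Tsc22d3 did not. The call for Tef rests on the average of a probe set at 8.38 and 8.72 and another at 5.84 and 5.95. At a stricter threshold, the sensory receptor genes' 99th percentile (6.64 on both arrays), all 9 clock genes and 37 of these 40 passed, against 45.0% of all named genes. The 3 that did not were Arntl2, Timeless and Vipr2.

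The accessory loop had 10 of 10 measured genes above background, with a median of 8.31. Nr1d2, the paralogue of Nr1d1 with the same repressive role, had signals of 9.44 and 9.47. The activators that compete with them at ROREs, Rora and Rorb, had 8.48 and 8.37 for Rora and 8.24 and 8.09 for Rorb. Among the D-box factors related to Dbp, Hlf had 10.03 and 9.94. Tef averaged 7.11 and 7.34 over a probe set at 8.38 and 8.72 and another at 5.84 and 5.95, so its level depends on the probe set. Nfil3, which opposes these activators at D-boxes, had 8.18 and 8.24. Activating and repressing factors of both elements, ROREs and D-boxes, thus gave signal.

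The E-box repressors Bhlhe40 and Bhlhe41 had 11.47 and 11.61 for Bhlhe40 and 8.27 and 8.24 for Bhlhe41. Ciart, whose product binds and represses the CLOCK and BMAL1 pair, had 8.31 and 8.40, and its promoter window held 3 E-boxes. Promoter windows were searched for 9 accessory loop genes, and Bhlhe40 was not among them. The E-box stood before 3 of these 9 (Ciart, Bhlhe41 and Tef), against 1854 of all 27025 genes with windows. The E-prime-box stood before 1 of 9 (Rorb), against 1215 of all, and the cyclic AMP response element before 1 of 9 (Hlf), against 478 of all. Nr1d2, Rora, Nfil3 and Arntl2 had windows without a match. These shares are not matched for composition either. Arntl2, a paralogue of Arntl, had 6.56 and 6.45, which passed the sensory receptor genes' 95th but not their 99th percentile.

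Genes that set the stability of clock proteins exceeded background for all 8 that were measured, and their median was 10.15. The casein kinase gene Csnk1e, whose product phosphorylates PER proteins, had 8.70 and 8.65, and its relative Csnk1a1 had 10.68 and 10.65. The kinase genes Csnk2a1 and Gsk3b averaged 10.16 ± 0.06 and 11.84 ± 0.06. Btrc and Fbxw11, which encode the ubiquitin ligase adaptors that recognise phosphorylated PER, averaged 10.97 ± 0.10 and 9.98 ± 0.01. Fbxl21, which encodes a ligase adaptor for cryptochromes, had 6.76 and 6.86 and was the lowest over background of this list. Usp2, a deubiquitinase gene, had 10.20 and 10.09. Csnk1d shares its probe set with Slc16a3 and was not analysed here.

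Of the cofactor genes, 9 of 9 measured exceeded background, with a median of 8.48. The coactivator acetyltransferase genes Crebbp and Ep300 averaged 11.76 ± 0.08 and 9.96 ± 0.11. Timeless and its partner Tipin, known mainly from DNA replication in mammals, were nearer to background, with 6.30 and 6.26 for Timeless and 6.99 and 7.06 for Tipin. Of the genes that carry signals into the clock, 7 of 7 exceeded background, including the cyclic AMP response factor Creb1 at 9.60 ± 0.04, its coactivator Crtc1 at 11.40 ± 0.04, the kinase Sik1 at 8.91 ± 0.01 and the small G protein Rasd1 at 7.89 ± 0.01. Vipr2, the receptor through which VIP couples cells of the suprachiasmatic nucleus, had 6.46 and 6.33. Of 6 further output genes, 6 exceeded background, including the cell cycle kinase Wee1 at 9.14 ± 0.06, the NAD-producing enzyme Nampt at 8.64 ± 0.19, Tsc22d3 at 7.12 ± 0.01 and the haem synthesis enzyme Alas1 at 9.51 ± 0.09.

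Genes typical of the suprachiasmatic nucleus, the brain's central clock, were above background in 4 of 7 cases. This 57.1% is near the 60.3% of all named genes. Prok2, Six6 and Nms did not exceed background, with 5.51 and 5.50 for Prok2, 5.48 and 5.55 for Six6 and 5.14 and 4.97 for Nms. Prok2 and Six6 lay close below the thresholds of 5.61 and 5.66. Grp averaged 8.95 ± 0.06 and Vip 9.53 ± 0.04, and both genes are also expressed by cortical neurons. Avp and Lhx1 were nearer to the threshold, at 6.76 ± 0.07 and 6.05 ± 0.15. Grp, Vip and Avp also passed the sensory receptor genes' 99th percentile, and Lhx1 did not. Which cells gave these signals was not tested.

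**Figure D4:**
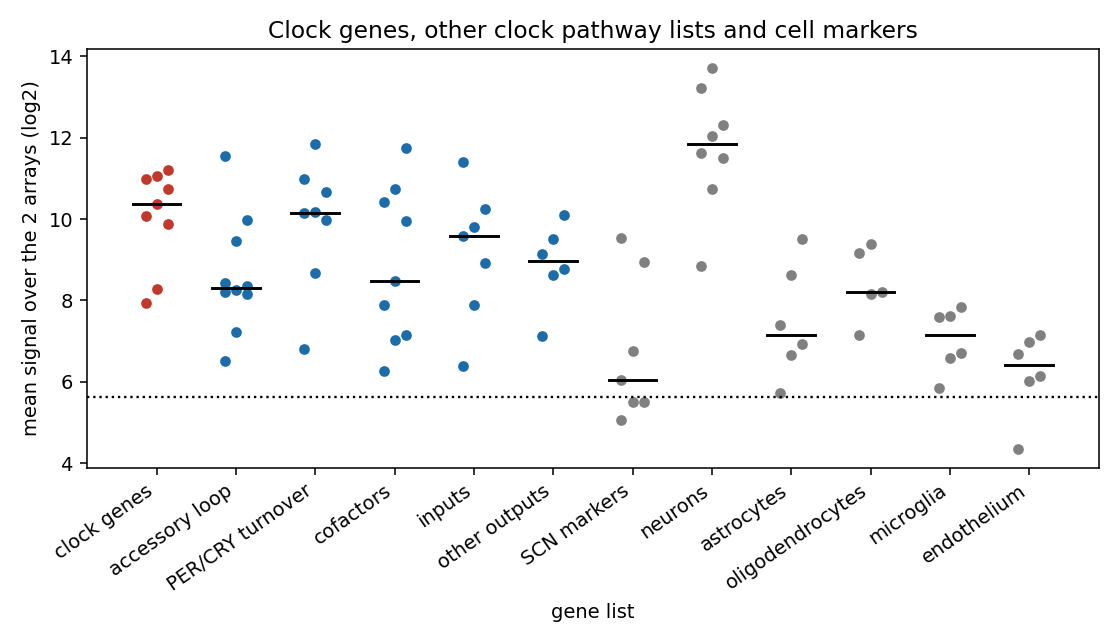
Mean signal over the arrays (log2, vertical axis) of each measured gene in the clock gene set (red), the other clock pathway lists (blue) and marker lists (grey; SCN, suprachiasmatic nucleus), with a bar at each list's median and a dotted line at the mean background threshold. All red and blue points lie above the line, and 3 suprachiasmatic and 1 endothelial marker lie below it.

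Clock genes are expressed in most cell types, so markers of other cells bear on whose RNA was measured. Their calls are read against the 60.3% of all named genes above background and the 38.0% above the out-of-tissue threshold. All 8 neuronal markers, with Drd2 at 10.78 and 10.70, were above background, their means between 8.85 and 13.70 (Snap25, Syt1, Rbfox3 and Map2 among them). So were all 6 astrocyte markers, between 5.72 and 9.51 (Gfap, Aqp4, Aldh1l1 and Slc1a3 among them), and all 5 measured oligodendrocyte markers, between 7.15 and 9.39 (Mbp, Mog, Mag and Mobp among them). All 6 microglial markers passed, between 5.85 and 7.84 (Cx3cr1, Tmem119, P2ry12 and Aif1 among them). Of 6 endothelial markers 5 passed, Flt1, Pecam1, Tek and Cldn5 among them, and Ly6c1, at 4.14 and 4.59, did not. At the out-of-tissue threshold all 8 neuronal, 3 astrocyte, 4 oligodendrocyte, 3 microglial and 0 endothelial markers passed. The part of other cells in the clock gene signals was not tested.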

How the data were processed

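Ribosome-bound RNA was labelled with biotin by the WT Plus kit per the labels' protocols, and the authors deposited 1 log2 signal per probe set and array. The log base is inferred from the values. How background correction, summarisation and normalization were done, and with which genome build, is not given in the sources used here. Quartiles were nearly equal (4.50, 5.80 and 7.79 on replicate 1; 4.52, 5.81 and 7.79 on replicate 2), and Pearson's r across probe sets was 0.994. All value columns were used.

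Of 34472 probe sets, 23521 named 1 gene, 1814 several and 9137 none here. Probe sets of a gene were averaged. A gene over the sensory receptor genes' 95th percentile on both arrays was called above background. Calculations used Python 3.11.15, pandas 2.3.3 and NumPy 2.4.6, and the code for calling was run on simulated data. Genes there were placed well above or below the threshold. That run checks the code only, and cannot show whether the threshold separates expressed from unexpressed genes. The number of arrays limits precision. The members and lists were chosen with earlier results of these data known. Named were all members, all measured accessory loop and protein stability genes, and of each other list the first 4 measured plus any gene whose call differed from that of most of its list; other names were chosen after values were seen. Alternatives were other thresholds, other rules for several probe sets, quantile normalization and each array alone. Promoter sequences came from RefSeq (GRCm38.p6), which held windows for all 9 measured genes.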

Additional observations from a re-analysis of the deposited data

How the results depend on the processing

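All 9 clock genes stayed above background under every alternative run, but some runs could not show otherwise. Each clock gene has 1 probe set, so the rules for several probe sets leave its signal unchanged. A gene above the threshold on both arrays is also above it on each array alone. The median signal was 10.4 without replicate 1 and 10.36 without replicate 2, against 10.38. That move stems from the same difference between arrays, so its small size is no separate support. The median size of the clock genes' difference between arrays went from 0.09 to 0.07 with quantile normalization. That move was smaller than the SD of this size across the 9 genes, which is a spread between genes and not between arrays. The smallest height of a clock gene over the threshold, that of Cry1, was 2.20 on the array where it was lower. It was 1.22 with the sensory receptor genes' 99th percentile, 2.05 with the median of all probe sets and 0.72 with the 95th percentile of 31 testis, liver and skeletal muscle genes, a threshold added after the data were seen (7.28 on replicate 1 and 7.10 on replicate 2). With each array left out in turn, this height was 2.20 and 2.39. The planned out-of-tissue threshold with the earlier lists was not run, since those lists were not at hand. With the added threshold, 8426 of all named genes passed in place of 13374 (38.0% against 60.3%), and 32 of the 40 other pathway genes. Marker counts were lower too: 2 of the suprachiasmatic, 3 of the astrocyte, 3 of the microglial and 0 of the endothelial markers passed it, where 4, 6, 6 and 5 had passed the sensory receptor genes' 95th percentile. At the 99th percentile, 3 microglial and 2 endothelial markers passed. Acta1, a muscle actin gene in the added lists, had 7.89 and 8.08, above Cry1 on replicate 2. Cry1 and Per3 are therefore the clock genes whose detection rests most on the choice of background. No paired analysis was possible because the arrays form 1 group.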
